A study of Sus scrofa with 12 samples.

Results

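The C/EBP (CCAAT/enhancer-binding protein) transcription factor genes were examined in the striatum of newborn piglets. The members were named by symbol as CEBPA, CEBPB, CEBPD, CEBPG and CEBPZ, and all 5 were found among the 25880 genes of the count table. Of these, 4 passed the filter on low counts and were tested with 14004 genes in all, while CEBPA fell below it. RNA labelled as striatum was sequenced from 6 piglets of the deep hypothermic circulatory arrest (DHCA) group and 6 of the Sham group, and the design gives 6 animals per group. Under 4% isoflurane, DHCA piglets were connected to cardiopulmonary bypass by sternotomy, brought down to 18 °C and kept in arrest for 30 min. Bypass then brought them back to 37 °C, and a recovery of 6 h followed. Sham piglets were kept under 4% isoflurane, and the labels give no surgery, bypass, cooling or recovery time for them. The separate parts of the procedure therefore cannot be told apart. The labels give the animals as neonatal with no strain, sex or exact age.

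C/EBP proteins bind DNA as dimers through a basic region and a leucine zipper. CEBPB and CEBPD are immediate transcriptional responders to interleukin-6 type cytokines, interleukin-1, endotoxin and glucocorticoids, and in rodent brain they are known from astrocytes, microglia and neurons. CEBPA is the factor of liver, fat and myeloid differentiation, and CEBPG, which lacks a strong activation domain, acts as a dimer partner of other C/EBP proteins and of ATF4. CEBPZ carries the family's name for its binding to the CCAAT box, but it has no leucine zipper and its yeast relative works in the nucleolus on ribosome assembly.

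Library totals ran from 5434652 to 9997400 counts in DHCA and from 1377809 to 12933536 in Sham, where Sham 5 and Sham 1 (2515816) were the shallowest. The mitochondrial chromosome held 10.6% to 26.3% of the counts in DHCA, but 4.01% in Sham 1 and 7.30% in Sham 5, against 13.7% to 20.2% in the other Sham libraries. Markers of spiny projection neurons, the defining cells of the striatum, held 0.188% to 0.428% of the counts in DHCA and 0.243% to 0.568% in 5 of the Sham libraries, but 0.0162% in Sham 4. The markers of cortex and thalamus held at most 0.0037% of the counts in DHCA and at most 0.00791% in the same 5 Sham libraries, against 0.103% in Sham 4. The library labelled Sham 4 thus went against its tissue label by both marker lists. The members' values are also given with one or more of Sham 1, Sham 4 and Sham 5 left out.

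CEBPB and CEBPD were the members with the largest differences, both higher after DHCA. Their group means were 2.78 times and 4.20 times as high in DHCA as in Sham. CEBPG was 1.47 times as high, CEBPZ differed by less than its spread, and CEBPA was near the limit of detection in both groups. In this bulk tissue, a difference in the number of cells that carry a transcript and a difference in transcript per cell cannot be told apart. Over all tested genes, 0 of the 4 tested members passed the edgeR quasi-likelihood test at an adjusted p of 0.05, where 0.186% of all tested genes did (26 genes), and 3 were higher at an unadjusted p under 0.05, where 3.43% of all genes were. The DESeq2 Wald test, the tool named in the submitters' processing notes, called CEBPB and CEBPD higher, and it called 0.758% of its tested genes higher. Limma-voom with sample quality weights also called both, and 0.921% of all genes, higher. In the authors' deposited table, made from animals of the same study, both are called higher, as are 0.783% of the genes with an adjusted p. Since the members were picked with results of these data known, these shares describe them only.

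**Figure D1:**
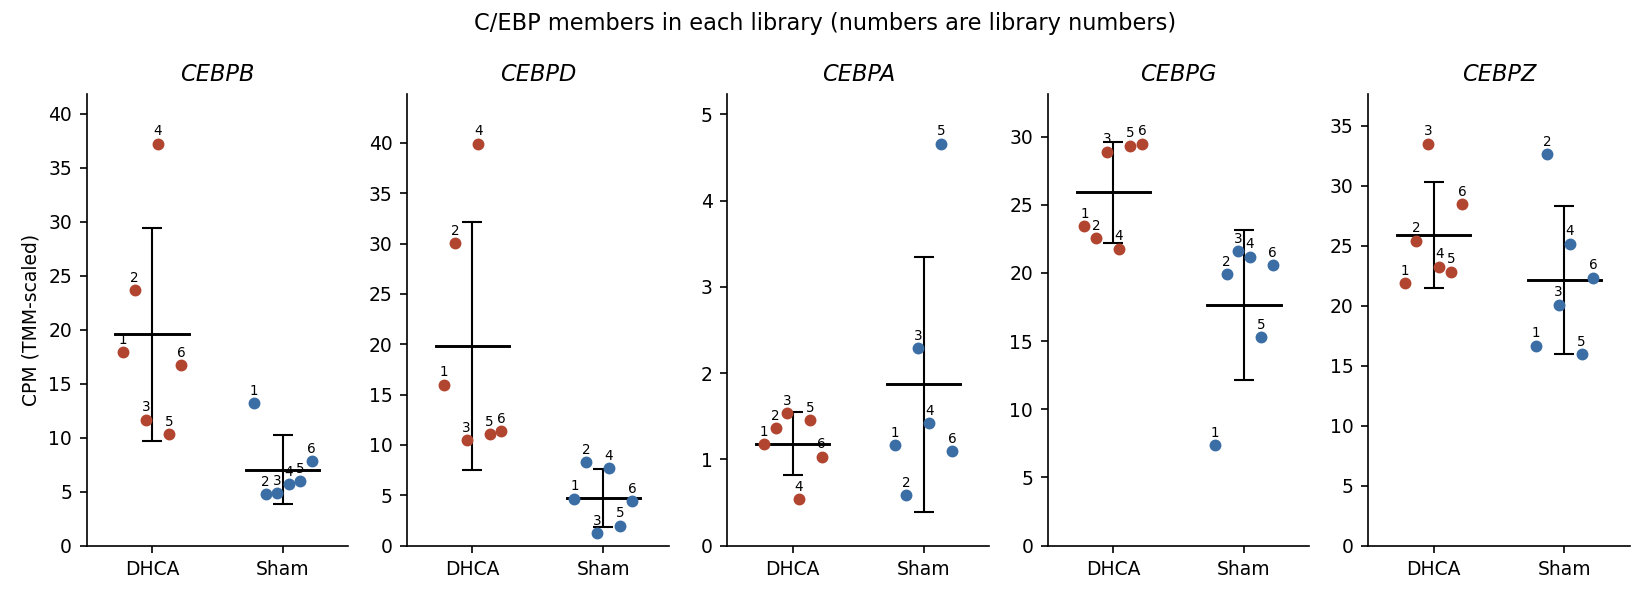
CPM, counts scaled to library size by TMM, of each member in each library, with DHCA left of Sham; points are libraries with their numbers, horizontal lines are means and bars are SD (n = 6 per group), and each panel has its own linear axis from 0. All 6 DHCA libraries lie above all Sham libraries for CEBPD (at least 10.5 against at most 8.32 CPM) and narrowly for CEBPG (21.8 against 21.6 CPM), while for CEBPB the library Sham 1 at 13.2 CPM lies among the DHCA values.

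CEBPD (ENSSSCG00000032367, chromosome 4, 79872421 to 79873989, plus strand, Sscrofa11.1) had 55 to 297 counts per library in DHCA and 3 to 100 in Sham. Its CPM (counts scaled to library size, with factors from the trimmed mean of M-values, TMM) had a lowest value of 10.5, a median of 13.7 and a highest of 39.9 in DHCA, against 1.21, 4.52 and 8.32 in Sham. The groups did not overlap, which held for 0.678% of all tested genes in the direction of DHCA. DHCA 4 and DHCA 2 (30.0 CPM) stood above the other 4 DHCA libraries, which lay between 10.5 and 15.98 CPM. Sham 3 and Sham 5 were the lowest, and in Sham 5 CEBPD rested on 3 counts, with an exact Poisson interval of 0.412 to 5.84 CPM for counting error alone. CEBPD averaged 19.8 ± 12.3 CPM in DHCA and 4.71 ± 2.88 CPM in Sham (SD, n = 6 each).

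The edgeR log2 fold change of CEBPD was 1.99 (SE 0.468), with an adjusted p of 0.140 that missed the threshold. The DESeq2 Wald test gave 2.01 (SE 0.478, adjusted p = 0.00496), and limma-voom with sample quality weights gave 2.53 (SE 0.474, adjusted p = 0.0169). The weighted call ended without Sham 1 and Sham 5 (limma adjusted p = 0.0594), and limma-voom with no weights did not call CEBPD (adjusted p = 0.169). DESeq2 called CEBPD in each of the 12 fits that left out 1 library, with adjusted p from 0.000903 to 0.0443. With Sham 1 and Sham 5 left out its adjusted p was 0.0265 in DESeq2 and 0.298 in edgeR, and with Sham 4 left out as well it was 0.0301 in DESeq2 and 0.502 in edgeR. In the authors' deposited table CEBPD has a log2 fold change of 2.04 (SE 0.367, adjusted p = 2.01e-05) and is number 25 by adjusted p of 17108 genes that have one.

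CEBPB (ENSSSCG00000034207, chromosome 17, 51722426 to 51724298, plus strand) is counted over a single exon interval of 1873 bases, and had 76 to 277 counts per library in DHCA and 9 to 107 in Sham. Its CPM had a lowest value of 10.3, a median of 17.3 and a highest of 37.2 in DHCA, against 4.74, 5.84 and 13.2 in Sham. The groups overlapped through Sham 1 alone, which was above DHCA 5 and DHCA 3, while the other Sham libraries were at 7.83 CPM or below. As for CEBPD, DHCA 4 was the highest library and DHCA 2 (23.6 CPM) the next. CEBPB averaged 19.6 ± 9.88 CPM in DHCA and 7.05 ± 3.21 CPM in Sham (SD, n = 6 each).

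The edgeR log2 fold change of CEBPB was 1.51 (SE 0.345, adjusted p = 0.131). Without Sham 1 it was 1.74 with an adjusted p of 0.0490 in edgeR, which passed the threshold, but edgeR did not call it without Sham 1 and Sham 5 (1.75, adjusted p = 0.122) or without Sham 1, 4 and 5 (1.73, adjusted p = 0.304). DESeq2 gave 1.501 (SE 0.353, adjusted p = 0.00464) and called CEBPB in all 12 fits that left out 1 library, with adjusted p from 7.43e-05 to 0.0313. Limma-voom with sample quality weights gave 1.61 (adjusted p = 0.0164), a call that ended when Sham 1 and Sham 5 were left out (adjusted p = 0.0528), and with no weights limma-voom did not call CEBPB (adjusted p = 0.117). In the authors' deposited table CEBPB has a log2 fold change of 1.495 (SE 0.304, adjusted p = 0.000346) and is number 40 of 17108 genes.

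CEBPG (ENSSSCG00000002867, chromosome 6, 43164933 to 43175006, plus strand) had 143 to 262 counts per library in DHCA and 19 to 281 in Sham. Its CPM had a lowest value of 21.8, a median of 26.2 and a highest of 29.5 in DHCA, against 7.37, 20.2 and 21.6 in Sham. The groups did not overlap, but the lowest DHCA library and the highest Sham library were almost level, and 4 of the Sham libraries lay between 19.9 and 21.6 CPM. Sham 1 and Sham 5, the shallow libraries, were the lowest, at 7.37 and 15.3 CPM. The edgeR log2 fold change was 0.53 (SE 0.222, adjusted p = 0.567), and DESeq2 did not call it. Without Sham 1 the edgeR value was 0.38 (adjusted p = 0.456), and without Sham 1 and Sham 5 it was 0.32 (adjusted p = 0.572). CEBPG averaged 25.9 ± 3.68 CPM in DHCA and 17.6 ± 5.52 CPM in Sham (SD, n = 6 each).

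CEBPZ (ENSSSCG00000008493, chromosome 3, 102964208 to 102992082, plus strand) had 138 to 223 counts in DHCA and 24 to 392 in Sham. Its CPM had a lowest value of 21.9, a median of 24.3 and a highest of 33.5 in DHCA, against 15.98, 21.2 and 32.6 in Sham. The groups overlapped over most of their range. The edgeR log2 fold change was 0.20 (SE 0.193, adjusted p = 0.823), and no difference was detectable with these libraries. Without Sham 1 and Sham 5 the edgeR value was 0.043 (adjusted p = 0.991).

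CEBPA (ENSSSCG00000002866, chromosome 6, 43084646 to 43085710, minus strand) had 4 to 13 counts per library in DHCA and 3 to 17 in Sham, which sum to 54 counts in DHCA and 59 in Sham. Its CPM had a lowest value of 0.538, a median of 1.27 and a highest of 1.54 in DHCA, against 0.583, 1.29 and 4.66 in Sham. The groups overlapped fully, and the highest Sham value, in Sham 5, rested on 7 counts with an exact Poisson interval of 1.87 to 9.60 CPM. With no filter the edgeR log2 fold change was -0.41 (SE 0.453, adjusted p = 0.785), and without Sham 5 the edgeR value was -0.12 (adjusted p = 0.985). The count table counts CEBPA over 1065 bases, while RefSeq gives the gene a span of 2685 bases on the same build, so reads from the rest of that span were not counted for it. CEBPE, the granulocyte member of the family, had 3 counts over all DHCA libraries and 2 over all Sham libraries.

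**Figure D2:**
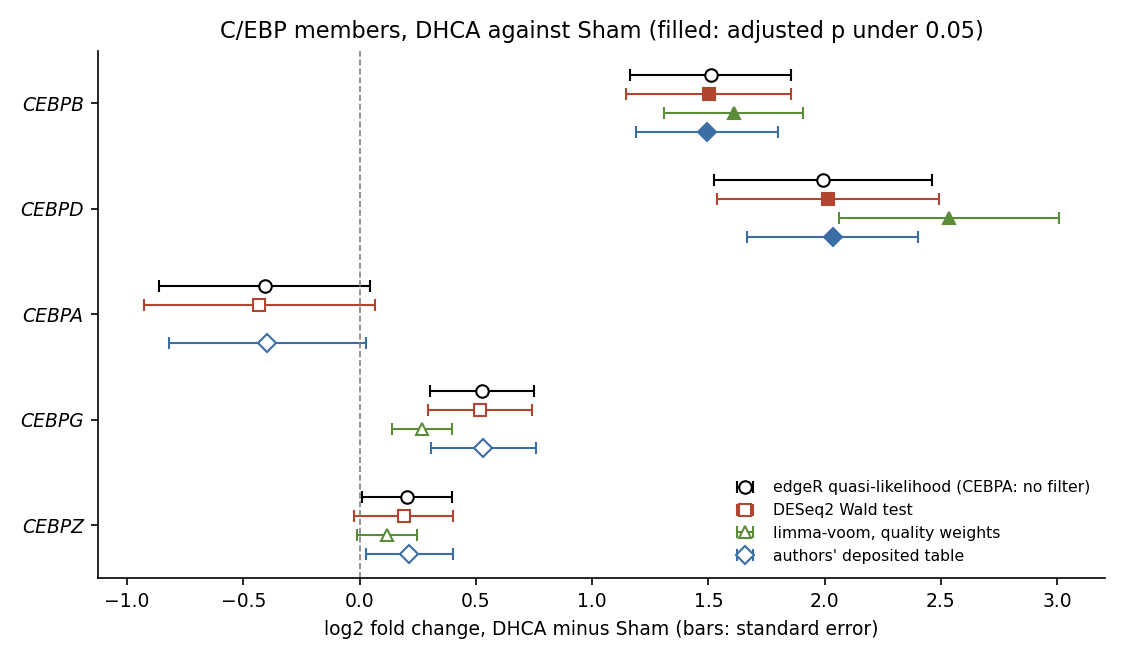
Log2 fold change of DHCA minus Sham for each member from the edgeR quasi-likelihood test, the DESeq2 Wald test, limma-voom with sample quality weights and the authors' deposited table; bars are standard errors and filled symbols have an adjusted p under 0.05. CEBPB lies between 1.495 and 1.61 and CEBPD between 1.99 and 2.53, each filled in all but edgeR, and CEBPG, CEBPZ and CEBPA are open throughout, the last with no limma-voom value.

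The order of the members' mean levels differed between the groups on a per-length scale, CPM per kilobase of exon. The order, and the sum and shares below, rest on the exon lengths of the count table. For CEBPB that length is 1873 bases, while RefSeq gives the gene a span of 1041 bases. Its place in the order may therefore depend on the annotation used. In DHCA the order of mean levels was CEBPD (15.3 ± 9.51), CEBPB (10.5 ± 5.27), CEBPG (6.08 ± 0.864), CEBPZ (3.80 ± 0.647) and CEBPA (1.11 ± 0.344), in CPM per kilobase (SD, n = 6). The neighbours CEBPD and CEBPB overlapped, with CEBPD higher in 5 of 6 libraries, and so did CEBPB and CEBPG, with CEBPB higher in 4 of 6. CEBPG lay above CEBPZ, and CEBPZ above CEBPA, in all 6 libraries without overlap. In Sham the order was CEBPG (4.15 ± 1.30), CEBPB (3.76 ± 1.71), CEBPD (3.64 ± 2.23), CEBPZ (3.25 ± 0.907) and CEBPA (1.76 ± 1.39), in CPM per kilobase, and every pair of neighbours overlapped. The upper 4 members were thus not separated from each other in Sham.

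The summed level of the 5 members was 25.7 to 59.7 CPM per kilobase in DHCA (mean 36.7 ± 13.4) and 13.7 to 19.0 in Sham (mean 16.5 ± 2.12). CEBPB and CEBPD together made up 52.1% to 84.9% of that sum in DHCA, with a median of 64.25%, against 25.8% to 66.9% in Sham, with a median of 46.3%. Sham 1 held the highest Sham share through CEBPB, and the next Sham share was 47.3%, below all DHCA libraries. Ratios of counts within a library do not depend on how libraries are scaled, and they showed where the members parted. CEBPZ had 0.582 to 3.21 counts per count of CEBPD in DHCA and 3.28 to 16.6 in Sham, so that the groups were narrowly apart. The groups overlapped in the other 9 of the 10 ratios between members. CEBPD had 0.679 to 1.27 counts per count of CEBPB in DHCA, a narrow range, against 0.250 to 1.75 in Sham. The lowest Sham ratio, in Sham 3, rests on 9 counts of CEBPD and 36 of CEBPB.

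**Figure D3:**
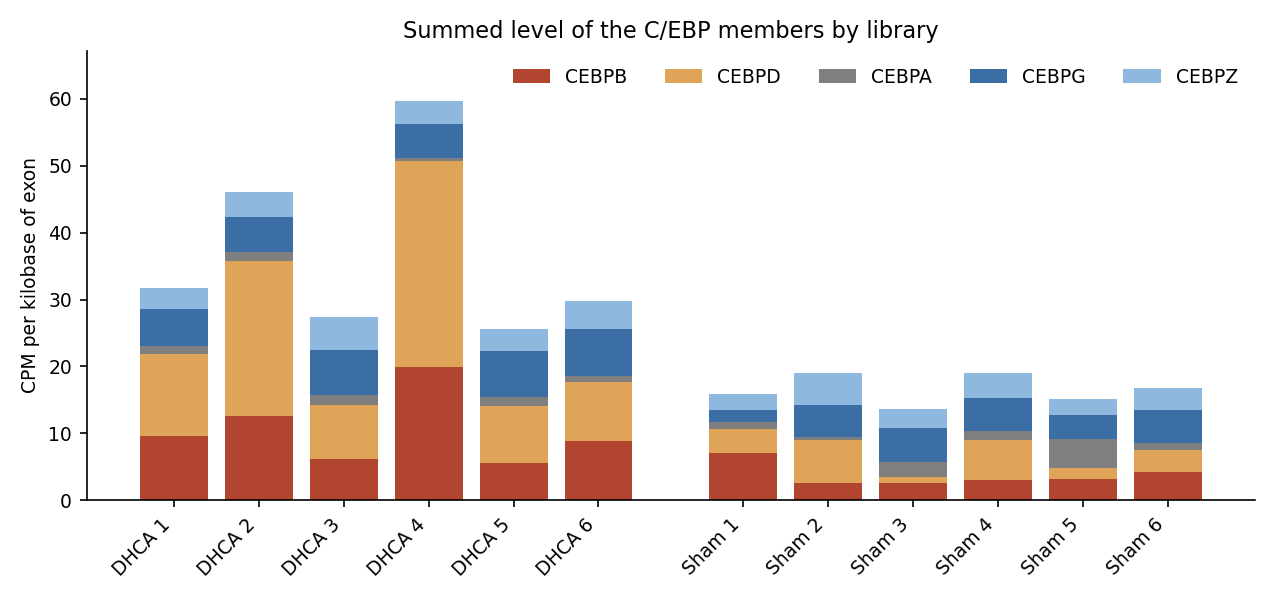
Level of each member in each library, stacked, in CPM per kilobase of exon (linear axis from 0), with DHCA libraries left of Sham libraries. The summed level is at least 25.7 in DHCA and at most 19.0 in Sham, and the CEBPB and CEBPD segments are tallest in DHCA 4 and DHCA 2.

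CEBPB and CEBPD varied together among the DHCA piglets. The Pearson correlation of their log2 CPM was 0.933 over the 6 DHCA libraries and 0.131 over the 6 Sham libraries, and it is given as a description, since libraries share depth and scaling. In Sham, CEBPD had only 3 counts in Sham 5, 9 in Sham 3 and 12 in Sham 1. The part of counting error in the Sham value was not tested. CEBPG ran the other way in DHCA, with a correlation of -0.922 with CEBPD and -0.860 with CEBPB. These DHCA correlations followed a split between libraries. The mitochondrial share was 10.6% to 12.3% in DHCA 1, 2 and 4 and 17.8% to 26.3% in DHCA 3, 5 and 6. Along this split CEBPD was at 15.98 to 39.9 against 10.5 to 11.3 CPM, and CEBPB at 17.9 to 37.2 against 10.3 to 16.7 CPM. CEBPG was at 21.8 to 23.4 against 28.9 to 29.5 CPM. The part of this split in the correlations was not tested. In Sham the correlation of CEBPG was -0.0303 with CEBPD and -0.863 with CEBPB, where Sham 1 is highest in CEBPB and lowest in CEBPG.

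Both the deposited annotation and the unstranded counting bear on CEBPD. The gene that follows it, SPIDR, which encodes a scaffold protein of DNA repair by recombination, lies on the opposite strand and points toward CEBPD, from 79873985 to 80190797 in the count table. By those coordinates the genes share 5 exon bases. RefSeq ends CEBPD 492 bases further on, and all 492 bases lie in SPIDR exons of the count table, where they are 11.14% of its 4415 exon bases, while RefSeq starts SPIDR at 79874937, beyond the end of CEBPD. Counting set no strand option, so reads from the end of the CEBPD transcript and from SPIDR cannot be told apart in those bases.

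SPIDR had a lowest value of 11.4, a median of 16.6 and a highest of 33.1 CPM in DHCA, against 4.05, 9.45 and 11.7 CPM in Sham. The groups overlapped only between DHCA 5, Sham 1 and Sham 4. Its edgeR log2 fold change was 1.17 (SE 0.303, adjusted p = 0.188), and the authors' deposited table gives it 1.16 (SE 0.286, adjusted p = 0.00827). Among 12735 genes compared with CEBPD over the 12 libraries, SPIDR had the highest correlation of log2 CPM, 0.955, and 0.896 after the group means were removed. The part that CEBPD reads have in the SPIDR counts was not tested.

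**Figure D4:**
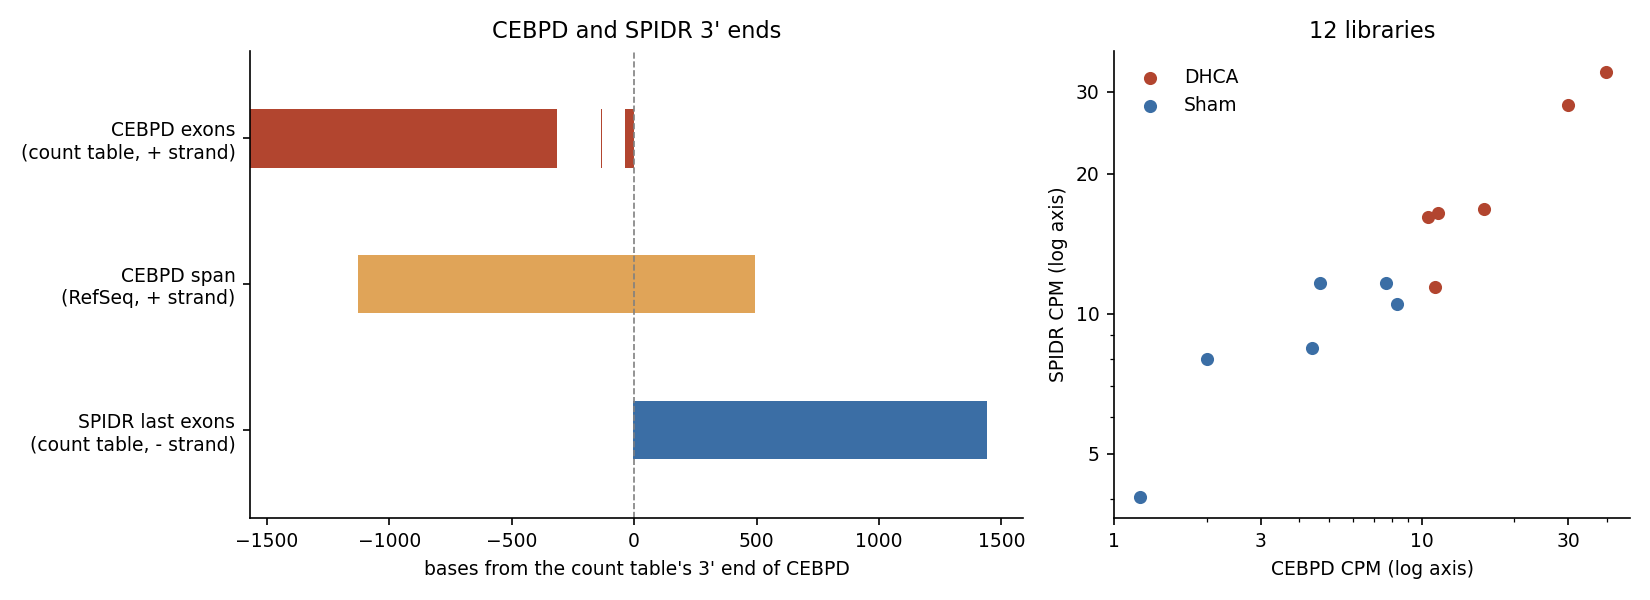
Left, intervals counted for CEBPD, the RefSeq span of CEBPD and the intervals counted for SPIDR, in bases from the 3' end of CEBPD in the count table; the RefSeq span runs 492 bases past that end, over bases counted for SPIDR. Right, CPM of SPIDR against CPM of CEBPD in the 12 libraries on log axes, which rise together, with DHCA 4 highest in both and Sham 3 lowest in both.

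The other neighbours of CEBPD and CEBPB were not called. PRKDC, which encodes the catalytic subunit of the DNA-dependent protein kinase and lies 26765 bases before CEBPD, had an edgeR log2 fold change of -0.39 (adjusted p = 0.440). PTPN1, which encodes a phosphatase that acts on insulin and cytokine receptor signalling and follows CEBPB at 292780 bases, had 0.62 (adjusted p = 0.354). On the other side of CEBPB, TMEM189 had 0.08 (adjusted p = 0.935 in edgeR). CEBPA and CEBPG are neighbours, 79222 bases apart on opposite strands. The gene beyond CEBPA is SLC7A10, an amino acid transporter of astrocytes, with an edgeR log2 fold change of -0.28 (adjusted p = 0.765), and the gene beyond CEBPG is PEPD, a dipeptidase, with -0.09 (adjusted p = 0.894 in edgeR). CEBPZ shares 1121 exon bases with the antisense gene CEBPZOS and 220 with NDUFAF7, an assembly factor of mitochondrial complex I, so its counts are uncertain by that overlap. CEBPZOS had an edgeR log2 fold change of -0.13 (adjusted p = 0.881), NDUFAF7 one of 0.20 (adjusted p = 0.842) and PRKD3, a protein kinase gene before CEBPZ, one of 0.14 (adjusted p = 0.932). SULT6B1, a sulfotransferase gene after CEBPZ, and ENSSSCG00000036962, which lies 363058 bases after CEBPD, were below the filter on low counts.

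The 3 genes most like each member were found by the Pearson correlation of log2 CPM over the 12 libraries, which share depth and the group difference. For CEBPB they were TNFRSF1A (0.935), the main receptor of tumour necrosis factor, ZFP36 (0.928), which encodes a protein that destabilises cytokine messenger RNA, and RAB20 (0.927), a small GTPase of vesicle traffic. RAB20 rose in DHCA (log2 fold change 1.69, adjusted p = 0.0415 in edgeR), a call that ended when any 1 library other than Sham 1 or DHCA 3 was left out (edgeR adjusted p up to 0.126), while TNFRSF1A had 0.69 (adjusted p = 0.354) and ZFP36 had 1.41 (adjusted p = 0.334). ZFP36 had its highest values in DHCA 4 (112 CPM) and DHCA 2 (91.3 CPM), the libraries that were also highest in CEBPB. For CEBPD, after SPIDR, they were MT2A (0.920), a metallothionein, and STX11 (0.886), a syntaxin of immune cell secretion with an edgeR log2 fold change of 2.31 (adjusted p = 0.159), which was 3.34 and called without Sham 2 (edgeR adjusted p = 0.0158).

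For CEBPG the most alike genes were TLK2, a chromatin assembly kinase (0.983), DESI2 (0.981) and SLC19A2, a thiamine transporter (0.975). Without the 2 libraries farthest from the median of CEBPG these correlations were 0.872, 0.872 and 0.852. For CEBPZ they were STARD4, a sterol carrier (0.953), ZCCHC7 (0.948) and AGPS, an enzyme of ether lipid synthesis (0.944). STARD4 and AGPS, like CEBPZ, had their highest Sham value in Sham 2 and their highest DHCA value in DHCA 3. For CEBPA, which rests on few counts, they were BCL7A (0.824), PPT2 (0.795) and SPEN (0.795), and none of the genes most like CEBPG, CEBPZ or CEBPA was called in edgeR.

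Genes of the signals known to act on CEBPB and CEBPD were counted next. Of 20 ligands, receptors and transducers, 15 were tested, and 0 passed the edgeR test in either direction. Of the 15, 13 had a positive and 2 a negative log2 fold change, with a median of 0.64 against -0.003 over all tested genes, and 8 were higher at an unadjusted p under 0.05, where 3.43% of all genes were. STAT3, the transducer of interleukin-6 type cytokines, had a lowest value of 109.8, a median of 132.5 and a highest of 156.2 CPM in DHCA, against 75.3, 84.5 and 106 CPM in Sham. The groups did not overlap, and the edgeR log2 fold change was 0.64 (SE 0.145, adjusted p = 0.123), while DESeq2 called it (adjusted p = 0.000149). OSMR, the oncostatin M receptor, averaged 33.1 ± 9.10 CPM in DHCA and 11.2 ± 6.84 CPM in Sham (log2 fold change 1.48, adjusted p = 0.188 in edgeR, and 0.0195 in DESeq2). IL1R1, the interleukin-1 receptor, averaged 6.98 ± 1.55 CPM in DHCA and 2.61 ± 2.61 CPM in Sham (log2 fold change 1.51, adjusted p = 0.244 in edgeR), and Sham 1 alone among the Sham libraries, at 7.75 CPM, reached the DHCA values. Without Sham 1 edgeR called IL1R1 (log2 fold change 2.01, adjusted p = 0.0163), as did DESeq2 with all libraries (adjusted p = 0.0307).

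Of the ligands listed, IL1B was not found by symbol and so was not measured here, and the others were at or near the floor. IL6 had 40 counts in all DHCA libraries together and 40 in all Sham libraries. TNF had 13 counts in DHCA and 21 in Sham, and OSM had 32 in DHCA and 14 in Sham. LIF had 5 in DHCA and 21 in Sham, with 10 of these in Sham 1. None of IL6, TNF, OSM and LIF passed the filter on low counts, so a difference in their transcripts was not detectable at this depth. The glucocorticoid receptor gene NR3C1 averaged 60.3 CPM in DHCA and 66.6 CPM in Sham and did not pass the test.

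Among 11 regulators of C/EBP protein, 10 were tested, and 0 passed the edgeR test. TRIB1, which encodes the pseudokinase that brings C/EBP alpha to the COP1 ubiquitin ligase, had a lowest value of 24.5, a median of 33.6 and a highest of 45.2 CPM in DHCA, against 12.02, 17.9 and 20.1 CPM in Sham. The groups did not overlap, and the edgeR log2 fold change was 0.95 (SE 0.191, adjusted p = 0.0689), while DESeq2 gave an adjusted p of 0.000675. Its relative TRIB2 went the other way, with 61.4 ± 7.93 CPM in DHCA and 80.2 ± 14.5 CPM in Sham (log2 fold change -0.39, adjusted p = 0.563 in edgeR). CELF1, which encodes an RNA-binding protein that acts on translation of CEBPB messenger RNA, had a log2 fold change of 0.28 (adjusted p = 0.723 in edgeR).

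Of 10 other basic leucine zipper genes, 8 were tested, 0 passed the edgeR test and the median log2 fold change was 0.24. NFIL3, a repressor that responds to cytokines, averaged 8.95 ± 4.23 CPM in DHCA and 4.02 ± 0.791 CPM in Sham, without overlap (log2 fold change 1.12, adjusted p = 0.188 in edgeR, and 0.0453 in DESeq2). ATF3, an early stress response gene, ranged from 1.24 to 19.7 CPM in DHCA and from 1.08 to 4.65 CPM in Sham (log2 fold change 1.89, adjusted p = 0.375 in edgeR). ATF4, the partner of CEBPG in the amino acid response, averaged 116.8 ± 17.3 CPM in DHCA and 94.8 ± 13.9 CPM in Sham (log2 fold change 0.30, adjusted p = 0.686 in edgeR).

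Genes known as targets in other tissues were mostly low or not called in edgeR. Of 24 myeloid and acute-phase genes, 20 were found and 11 tested, 0 passed the edgeR test and the median log2 fold change was 0.38, and an unadjusted p under 0.05 was reached by 4 that were higher and 0 that were lower, where 3.43% of all tested genes were higher and 4.47% lower. TNFAIP6, a hyaluronan-binding protein gene, had 4.15 ± 1.65 CPM in DHCA and 1.64 ± 0.720 CPM in Sham (log2 fold change 1.26, adjusted p = 0.244 in edgeR). PTGS2, the inducible cyclooxygenase, had 15.6 ± 6.87 CPM in DHCA and 5.26 ± 4.62 CPM in Sham (log2 fold change 1.51, adjusted p = 0.375 in edgeR). CD14, the endotoxin co-receptor of myeloid cells, had 19.1 ± 4.69 CPM in DHCA and 9.15 ± 6.00 CPM in Sham (log2 fold change 1.07, adjusted p = 0.384 in edgeR). Limma-voom with sample quality weights called PTGS2 (log2 fold change 2.25, adjusted p = 0.0232) and CD14 (1.19, adjusted p = 0.0388), but not TNFAIP6. The chemokine gene CCL2, named after its values were seen, did not pass the filter on low counts but had 325 counts over the DHCA libraries and 38 over the Sham libraries. It ranged from 1.01 to 21.1 CPM in DHCA (median 3.91) and from 0 to 2.91 CPM in Sham. The groups thus overlapped, and DESeq2 did not call it (adjusted p = 0.183).

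Of 13 adipose and liver genes, 5 were tested, none was called in edgeR and the median log2 fold change was 0.22, with 0.41 for SCD, 0.29 for AGT and -0.65 for CIDEC. Of 16 amino acid response genes, all 16 were tested and 0 passed the edgeR test, with a median of 0.21. TRIB3, which is induced by ATF4, had 5.32 ± 1.33 CPM in DHCA and 2.06 ± 1.09 CPM in Sham, without overlap (log2 fold change 1.498, adjusted p = 0.193 in edgeR, and 0.012 in DESeq2). The transporter gene SLC7A5 had a log2 fold change of -0.68 (adjusted p = 0.466 in edgeR) and DDIT4 one of 0.60 (adjusted p = 0.588 in edgeR). Of 21 genes of nucleolar ribosome assembly, the process of the yeast relative of CEBPZ, 20 were tested and 0 passed the edgeR test, with a median of -0.08. In that list RRS1 had -0.58, RRP1B had -0.51 and NOP58 had 0.29.

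Glucocorticoid-induced genes were the only one of these 8 lists with members called by edgeR. DESeq2 called 4 genes higher here and 1 to 3 in each of 4 other lists, where it called 0.758% of all its tested genes higher. All 11 were tested, 2 rose over all tested genes in edgeR, where 0.136% of all genes did, and 0 fell, with a median log2 fold change of 0.67. MT1A, a metallothionein, had 14.1 ± 7.23 CPM in DHCA and 1.84 ± 1.71 CPM in Sham (log2 fold change 3.02, adjusted p = 0.0323 in edgeR). MT2A had a lowest value of 29.3, a median of 42.7 and a highest of 62.8 CPM in DHCA, against 12.7, 17.9 and 23.8 CPM in Sham (log2 fold change 1.27, adjusted p = 0.0415 in edgeR). The ID given here as MT2A is MT1X in the reference names, and metallothionein copies share sequence, so the split of reads between both genes is uncertain. Leaving out 1 library ended the edgeR call of MT1A for DHCA 1, 2, 3 and 4 and Sham 3, 4, 5 and 6 (adjusted p up to 0.105), and that of MT2A for these and DHCA 5 (adjusted p up to 0.126). DHCA 2 and DHCA 4 were the highest libraries of MT2A, as they were of CEBPD. The other genes that DESeq2 called, named after their values were seen, were FKBP5 and ERRFI1. FKBP5, a co-chaperone of steroid receptors, had a lowest value of 169.7, a median of 193.8 and a highest of 298.4 CPM in DHCA, against 23.7, 52.0 and 120.9 CPM in Sham, without overlap (log2 fold change 1.76, adjusted p = 0.0581 in edgeR and 0.000132 in DESeq2). ERRFI1, an inhibitor of the epidermal growth factor receptor, averaged 35.4 ± 11.2 CPM in DHCA and 19.5 ± 3.63 CPM in Sham (log2 fold change 0.87, adjusted p = 0.170 in edgeR and 0.0187 in DESeq2). The rest of the list, also named after its values were seen, was called by neither tool. Its edgeR log2 fold changes were 0.70 for PER1, 0.67 for KLF9, 0.67 for ZBTB16 and 0.35 for SGK1. Those of TSC22D3, DUSP1 and CDKN1C were 0.29, 0.11 and -0.63.

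**Figure D5:**
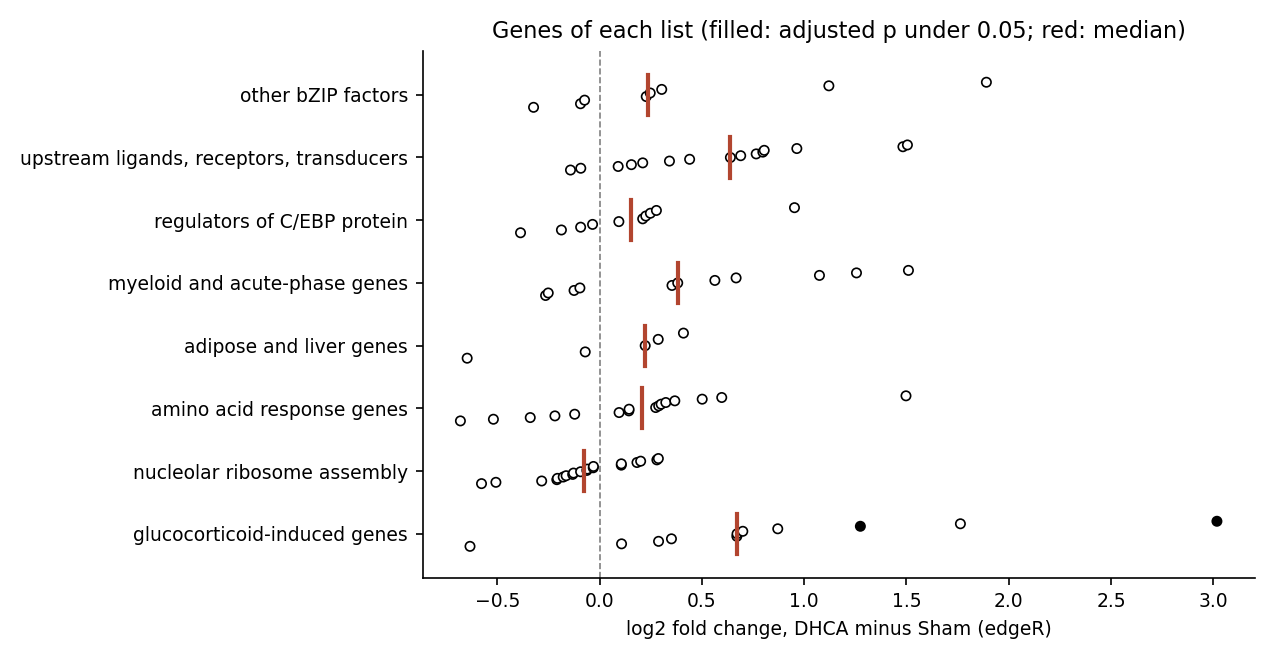
Log2 fold change of DHCA minus Sham in edgeR for each tested gene of the 8 lists; points are genes, filled where the adjusted p is under 0.05, and red lines are list medians. The medians run from -0.08 for nucleolar ribosome assembly to 0.67 for glucocorticoid-induced genes, and the filled points are MT2A at 1.27 and MT1A at 3.02.

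Markers of neutrophils and monocytes, cells in which CEBPB and CEBPD are abundant, did not pass the adjusted test. Of 9 markers, 8 were found, and their summed share of counts was 0.00175% to 0.00324% in DHCA and 0.000688% to 0.00290% in Sham (exact 2-sided permutation test p = 0.0238, adjusted over 10 marker lists 0.0595). When 1 library was left out the adjusted p of the exact permutation test ran from 0.0361, without Sham 1, to 0.166, and it passed only in the set without Sham 1. CD14 carried most of it, with 897 counts in DHCA and 402 in Sham. MPO was under 1 CPM in every library, with 2 counts in DHCA and 4 in Sham. S100A8 had 26 counts in DHCA and 24 in Sham, S100A9 had 45 in DHCA and 17 in Sham, and LYZ had 60 in DHCA and 21 in Sham. The correlation of this share with log2 CPM over the 12 libraries was 0.844 for CEBPB and 0.648 for CEBPD. The part of these cells in the CEBPB and CEBPD values was not tested.

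Markers of microglia held 0.0139% ± 0.00293 of the counts in DHCA and 0.0167% ± 0.00459 in Sham, and those of astrocytes 0.596% ± 0.100 in DHCA and 0.579% ± 0.05 in Sham (SD, n = 6 each). Neither passed the exact permutation test, with adjusted p of 0.356 for microglia and 0.877 for astrocytes. The endothelial share was 0.0320% ± 0.00313 in DHCA and 0.0389% ± 0.0105 in Sham, with an adjusted p of 0.303 in the exact permutation test. Red cell markers held 0.00239% to 0.00587% in DHCA and 0.00338% to 0.0254% in Sham, with an adjusted p of 0.0541 in the exact permutation test, and their correlation was -0.707 with CEBPB and -0.687 with CEBPD. The part of residual blood in the values of CEBPB and CEBPD was not tested.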

How the data were processed

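RNeasy RNA was made into TruSeq libraries and sequenced on an Illumina instrument, per the labels' protocols. The authors' deposited table of raw counts per Ensembl gene was made with featureCounts 1.5.1 over exons with no strand option, per the file headers, on Sscrofa11.1, per the submitters' processing notes. No aligner is named in the sources used here. Exon lengths (another column) are those deposited by the authors. Of 18 library columns, 12 match the samples, and the other 6 were not used. The authors' deposited comparison table has columns, per the file headers, for the mean signal after normalization, the log2 fold change and its SE, a test statistic (a score), and raw and adjusted p-values. The submitters' processing notes name DESeq2. It lists 86 genes with 0 counts in the 12 libraries, so its fit may have used other counts. Its fold changes are taken to run as DHCA minus Sham: all 26 genes called here have the same sign there, and its statistic has the opposite sign in all 21223 rows.

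The counts were filtered in R 4.3.3 by filterByExpr of edgeR 4.0.16 (a minimum count of 10, here 1.38 CPM in 6 libraries), scaled by TMM and tested with glmQLFit (robust) and glmQLFTest, with group as the only term. P-values were adjusted by Benjamini-Hochberg over all tested genes, with a threshold of 0.05. They set the difference between groups against the spread between libraries of different animals, which also holds differences in depth and tissue. SE came from the F statistic. Levels are TMM-scaled CPM divided by exon length in kilobases. Alternatives were other scalings and filters, DESeq2 1.42.0, limma 3.58.1 voom with and without sample quality weights, a block by library number, and leaving out libraries. DESeq2 fits that leave out libraries, weighted fits without Sham 1, 4 and 5 and the marker shares without libraries were added after seeing the data. The test of marker shares was an exact permutation test, 2-sided, with 924 assignments and a smallest possible p of 0.00216. Depth set the precision, as 1 count stands for 0.0732 CPM in the deepest library and 0.666 in the shallowest, and Poisson intervals (95%) cover counting error only. No library was counted as a repeat, since the chi-square of any same-group pair was at least 8.50 per degree of freedom. The edgeR, DESeq2 and weighted limma-voom fits were tested on simulated data.

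The members and gene lists were chosen with earlier results of these data known. The genes named are the members, every edgeR-called gene of each list, or in a list with none up to 3 tested genes of smallest p, the 3 genes most correlated with each member (prior count 2, at least 1 CPM on average) and the neighbours or overlapping genes of each member. Others are said to be outside this rule or serve as markers, ligands or receptors with their values. Symbols are those of the authors' deposited table or else of a reference table. Promoter and protein sequences were not used here.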

Additional observations from a re-analysis of the deposited data

Results flagged for a closer look

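In groups of 6 libraries, 11 of 104 groups examined held a library far from the others. The nominal rate of the rule is about 1 in 20 groups. The groups reuse the same 12 libraries and are not independent, so the count cannot be set against that rate. CEBPB was at 13.2 CPM in Sham 1, against 4.74 to 7.83 CPM in the other Sham libraries. In Sham 1, IL1R1 was at 7.75, DDIT4 at 57.8, RRP1B at 99.3 and ZFP36 at 49.2 CPM, each above the other Sham libraries, while TRIB1 at 12.02, CELF1 at 152 and NDUFAF7 at 2.71 CPM were below them. In Sham 2, STX11 was at 3.16 and STARD4 at 67.5 CPM, above the other Sham libraries. SCD was at 1752 CPM in DHCA 3, against 542 to 863 CPM in the other DHCA libraries. Of these libraries, Sham 1 had the second lowest total and the lowest mitochondrial share of counts, and the part of its depth in these values was not tested.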

How the results depend on the processing

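The 5 members kept their direction in every fit run, and CEBPG, CEBPZ and CEBPA stayed below the threshold in all of them. CEBPB was called by DESeq2 (1.501), by limma-voom with sample quality weights (1.61) and, in edgeR, without Sham 1. CEBPD was called by DESeq2 (2.01) and by the weighted fit (2.53). Leaving out 1 library gave CEBPB 1.22 to 1.74 in edgeR and 1.23 to 1.75 in DESeq2, and CEBPD 1.66 to 2.24 and 1.69 to 2.28. Without Sham 4 alone edgeR gave CEBPB 1.45 (edgeR adjusted p = 0.259) and CEBPD 2.15 (edgeR adjusted p = 0.194). In the same edgeR fit CEBPG had 0.57, CEBPZ 0.23 and CEBPA -0.42, none of them called. DESeq2 called both without Sham 1 and Sham 5 (CEBPB 1.75, CEBPD 1.86) and without Sham 1, 4 and 5 (CEBPB 1.75, CEBPD 2.06). The labels do not say whether the number in the titles pairs the libraries. The correlation of same-numbered libraries ran from -0.388 to 0.338 and only number 1 correlated best with its own. Such correlations over all tested genes cannot decide whether the libraries are paired, since depth and tissue also differ between them. With the number as a replicate block edgeR called 7 genes higher and 1 lower, and CEBPD was among those called higher (2.10, SE 0.269, adjusted p = 0.0465).

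The number of genes called higher, 19 in edgeR, was 111 by DESeq2, 129 by the weighted fit, 9 without Sham 1 and Sham 5, 1 without Sham 1, 4 and 5, and 7 to 28 without 1 library. The number called lower, 7 in edgeR, was 70 by DESeq2, 4 by limma-voom, 78 by the weighted fit, 3 and 0 with those Sham libraries left out, and 1 to 23 without 1 library. DESeq2 without 1 library called 63 to 144 higher and 38 to 131 lower. Without Sham 1 and Sham 5 it called 138 higher and 50 lower, and the weighted fit 54 and 40. Without Sham 1, 4 and 5 they called 83 and 28, and 51 and 38. The cause was not tested. In DESeq2 the median of all genes was -0.08.

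Computed as TPM, a unit of another size, mean levels in DHCA were 35.4 for CEBPD, 23.9 for CEBPB, 13.4 for CEBPG, 8.37 for CEBPZ and 2.46 for CEBPA, and in Sham 9.82 for CEBPG, 9.06 for CEBPB, 8.54 for CEBPD, 7.65 for CEBPZ and 4.32 for CEBPA, in the same order. TPM used the same exon lengths. Without 1 library, DHCA minus Sham in the share of counts ran, in percentage points, from 0.00105 to 0.00149 for neutrophils and monocytes, -0.0154 to -0.00865 for fibroblasts and mural cells, -0.0157 to -0.0101 for oligodendrocyte precursors, -0.0218 to -0.00194 for cortex and thalamus and -0.0108 to -0.00645 for red cells, each passing the exact permutation test in at least 1 such set of libraries. Without Sham 1 and Sham 5 the red cell difference was -0.0113 points and passed (exact permutation test).

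Of 45 other named genes, 5 reversed, none of them called. PRKD3 was -0.14 by the weighted fit, -0.17 without Sham 1 and Sham 5, -0.18 without Sham 1, 4 and 5, and -0.073 to 0.34 without 1 library. AGPS was -0.0063 and -0.062 with those Sham sets left out and -0.035 to 0.61 without 1 library. BCL7A was 0.029 and 0.045, and -0.097 to 0.035 without 1 library. TMEM189 was -0.11 to 0.19 without 1 library, and RRP1B was 0.037 without Sham 1 and Sham 5. MT1A, MT2A and RAB20 lost their call in 38 fits in all, and 11 genes gained one in 21. Depth limits CEBPA, the cytokine ligands, and CEBPD in Sham 5 and Sham 1. In Sham 3, which was not shallow (7497771 counts in total), CEBPD rested on 9 counts.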
